A study of Homo sapiens with 6 samples.

Results

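The 10 mRNAs described here encode core components of the canonical Wnt pathway. They were chosen by gene symbol, with earlier results of these data known: LRP6, RNF43, ZNRF3, APC, AXIN1, AXIN2, GSK3B, CTNNB1, TCF7L2 and MYC. All 10 were found among the 23013 genes of the deposited table, and all passed the filter on low values that left 16513 genes for testing. The study asked which RNAs come down with ORC1, a protein of the origin recognition complex, which licenses the sites where DNA replication begins. Native RNA immunoprecipitation with sequencing (RIP-seq) was performed on nuclear lysates of untreated, asynchronously growing HCT116 cells, a human colorectal cancer line. The inputs were RNA of the nuclear lysate taken without any antibody (n = 3), and the ORC1 IPs were RNA recovered with an anti-ORC1 antibody (n = 3). Labels give every input and ORC1 IP a RIP replicate number from 1 to 3, and no library from a control antibody was analysed here, so RNA bound through ORC1 and RNA retained by beads or antibody in general cannot be told apart in these libraries. The study describes its control IgG as yielding too little RNA to detect.

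In the canonical Wnt pathway, secreted Wnt ligands bind Frizzled receptors together with the co-receptors LRP5 and LRP6. Without ligand, a destruction complex built on the scaffolds APC and AXIN1 or AXIN2 lets the kinases GSK3B and casein kinase 1 mark beta-catenin, the product of CTNNB1, for degradation. With ligand, beta-catenin accumulates, enters the nucleus and joins TCF/LEF factors such as TCF7L2 on target genes, among them MYC and the feedback gene AXIN2. The pathway maintains intestinal stem cells and is active in most colorectal cancers, usually through loss of APC. HCT116 is known instead for an activating CTNNB1 mutation with intact APC.

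The study describes tandem GAA triplets as a feature of the RNAs it found with ORC1, so the transcripts of the 10 genes were searched for 3 tandem GAA triplets on the transcript strand. The longest transcript held such a run in 4 of the 10 genes, APC, TCF7L2, LRP6 and AXIN2, against 12.9% of the 16062 tested genes matched to GENCODE v44. The share of genes holding a run increased with transcript length, from 6.08% in the shortest length quartile to 13.1% in the third and 23.9% in the longest, and all 10 genes belonged to the third (4 genes) or the longest quartile (6 genes). One window per gene is shown, read 5′ to 3′ on the transcript strand of the MANE Select transcript (GENCODE v44, GRCh38), with the GAA runs in capitals.
APC: tctGAAGAAGAAcagcatGAAGAAGAAgag
TCF7L2: ctccaaaaagGAAGAAGAAaagaagaagcc
LRP6: taaaaaagagGAAGAAGAAaaattaagtcc
AXIN2: agaggaactgGAAGAAGAAaaattcccaga
The APC window lies in the coding sequence at chr5:112839036-112839065 on the plus strand and holds 2 runs. The TCF7L2 window lies in the coding sequence at chr10:113151737-113151766 on the plus strand, and a further run in its coding sequence lies in a window that spans an exon junction. The LRP6 window is in the 3′ UTR at chr12:12120722-12120751 on the minus strand, and that of AXIN2 is in the 5′ UTR at chr17:65558645-65558674 on the minus strand. Over all matched genes, the median log2 difference of ORC1 IP over input was 0.59 with a run and -0.06 without. The log2 difference also increased with transcript length, from a median of -0.38 in the shortest quartile to 0.39 in the longest. Genes with and without a run were not matched for length. A match is a description of the letters in a transcript and was not tested as a site. From the positions of crosslink peaks and from gel-shift assays, the study concludes that the repeat is not what ORC1 binds.

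Recovered reads on genes ranged from 13703033 to 17248924 in the inputs and from 25134156 to 36008733 in the ORC1 IPs. The 10 mRNAs had between 319 reads (AXIN2) and 36337 reads (CTNNB1) in a library. Of the colon epithelium markers, 7 of 8 were listed, VIL1 only at 0 to 6.30. The summed markers ranged from 49068 to 140531 in the inputs and from 17299 to 146127 in the ORC1 IPs, with the lowest sum in ORC1 IP 2. Of the fibroblast markers, 1 of 5 was listed (COL1A1, 161 to 787), and none of the 5 blood and immune markers was. ORC1 IP 2 stood apart from the other ORC1 IPs, and over all genes tested limma called 376 higher and 234 lower with it (3.69% in either direction), against 1965 and 1053 without it, so values without it are given beside the results that it moves most.

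The first question was how abundant the Wnt pathway mRNAs are in the nucleus before immunoprecipitation. Levels of different genes were compared as normalised count per kb of the longest transcript. CTNNB1 was the most abundant at 2959 ± 690 (SD, n = 3), at percentile 98.0 of the genes tested. MYC followed at 1411 ± 270 and TCF7L2 at 716 ± 157. RNF43, which encodes a ubiquitin ligase that removes Frizzled receptors from the cell surface, was at 379 ± 173. GSK3B was at 226 ± 59.0 and LRP6 at 180 ± 14.6.

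The scaffolds and the second receptor ligase were the least abundant on this per-kb scale. AXIN2 was at 126 ± 37.2, AXIN1 at 123 ± 23.2, ZNRF3 at 97.4 ± 14.6 and APC at 95.6 ± 38.4, between percentiles 47.6 and 54.0. In this order, the 3 inputs of CTNNB1 did not overlap those of MYC, those of MYC did not overlap those of TCF7L2, and those of LRP6 did not overlap those of AXIN2. The ranges of all other neighbours overlapped across inputs. Within a library, the order from CTNNB1 down to LRP6, and LRP6 above AXIN2, was the same in each of the 3 inputs, whereas each later pair of neighbours (AXIN2, AXIN1, ZNRF3 and APC) kept its order in 2 of 3. The order of the upper genes also depends on the length used, since with the median transcript length GSK3B ranked 2 and MYC ranked 4, whereas CTNNB1 stayed at rank 1 and APC at rank 10.

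**Figure D1:**
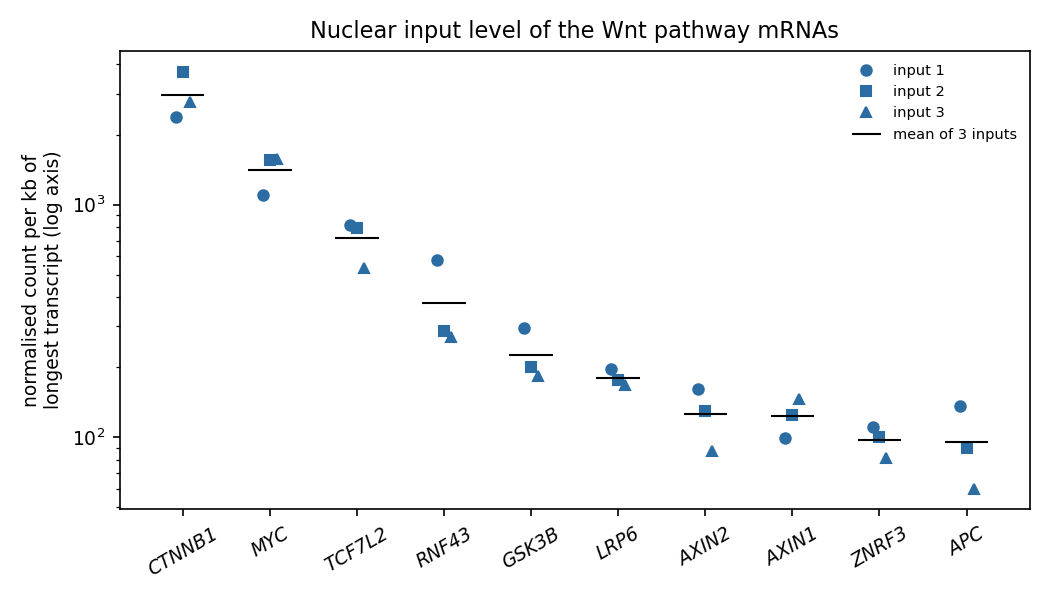
Nuclear input level of the 10 mRNAs as normalised count per kb of the longest transcript, on a log axis, with 1 point per input library and a line at the mean of 3 inputs. CTNNB1 sits at 2390 to 3727, above all inputs of MYC, and the 4 genes at the right overlap between 60.2 and 162.

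The main comparison was ORC1 IP against input. APC mRNA was higher in ORC1 IP, by 2.19 ± 0.47 on the log2 scale (SE), which is 4.55-fold, and it was the only one of the 10 mRNAs to pass the test (limma, adjusted p = 0.0284, n = 3 per group). This is 1 of 10, beside 2.28% of all genes tested, and 0 of 10 were called lower, beside 1.42% of all genes tested. By transcript length, 1.92% of genes were called higher in the third quartile and 5.33% in the longest, to which APC belongs. TCF7L2, the main TCF factor of the intestine, and RNF43 had the next values, 1.37 ± 0.49 and 1.06 ± 0.46, with adjusted p-values of 0.129 and 0.203 in limma. The other 7 mRNAs, those of CTNNB1 and MYC included, had 95% intervals that covered 0.

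Across the 10 mRNAs the log2 difference ranged from -0.25 to 2.19 with a median of 0.50, beside 0.01 over all genes tested. The difference was positive in 9 of 10, beside 50.7% of all genes tested, and positive within each of the 3 numbered pairs in 5 of 10 (APC, TCF7L2, RNF43, AXIN1 and AXIN2), beside 19.8%. The study used a looser threshold, an unadjusted p under 0.05 together with a log2 fold change over 1, at which limma called 3 of 10 higher (APC, TCF7L2 and RNF43), beside 10.9%, and 0 lower, beside 7.25%. Without ORC1 IP 2, RNF43 no longer met this threshold (0.74, unadjusted p = 0.0708 in limma) and MYC did (1.05, 0.0182). In the full set, the same 3 mRNAs were those whose ORC1 IPs all lay above all inputs, beside 12.7% of all genes tested, and 0 of 10 had all ORC1 IPs below all inputs, beside 13.5%. Longer transcripts had higher values in general, with medians of -0.38, -0.12, 0.06 and 0.39 from the shortest to the longest length quartile, and the median of the 10 was above that of either quartile they fall in. Scaling by total count in place of the deposited size factors moved the median of all genes from 0.01 to -0.19 and that of the 10 mRNAs to 0.29. The study states that its experiments were repeated independently. The labels do not say whether the replicates came from separate cultures, so p-values measure the spread between these libraries.

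**Figure D2:**
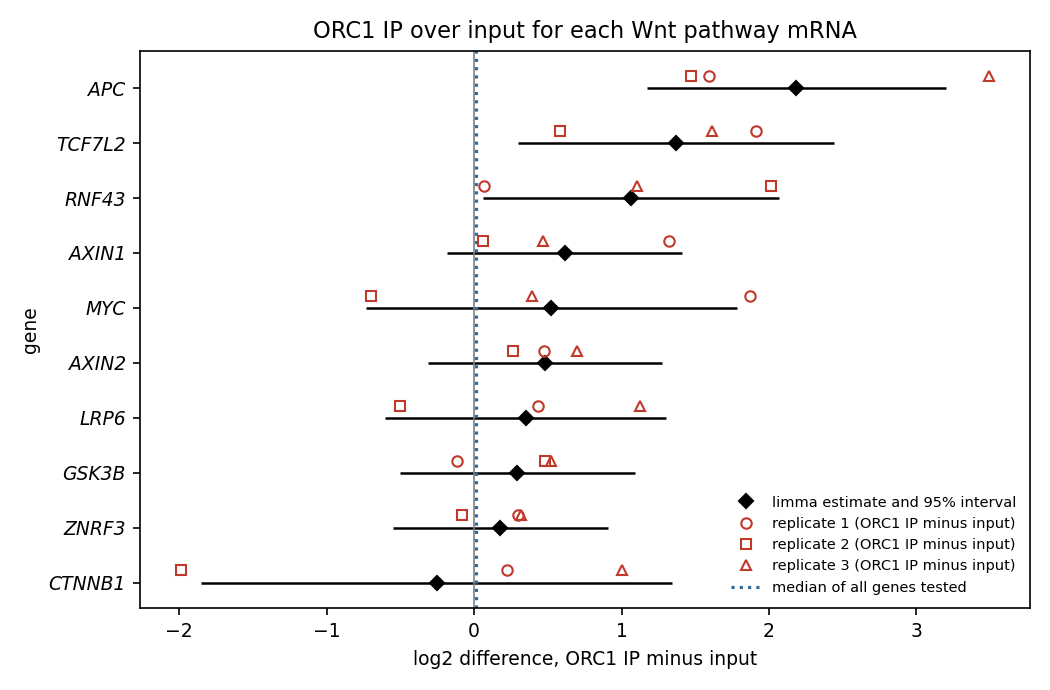
Log2 difference of ORC1 IP minus input for each mRNA, with the limma estimate (diamond), its 95% interval (line) and the difference within each numbered pair (open symbols). The dotted line marks the median of all genes tested, 0.01, and the intervals of APC, TCF7L2 and RNF43 lie above 0.

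**Figure D3:**
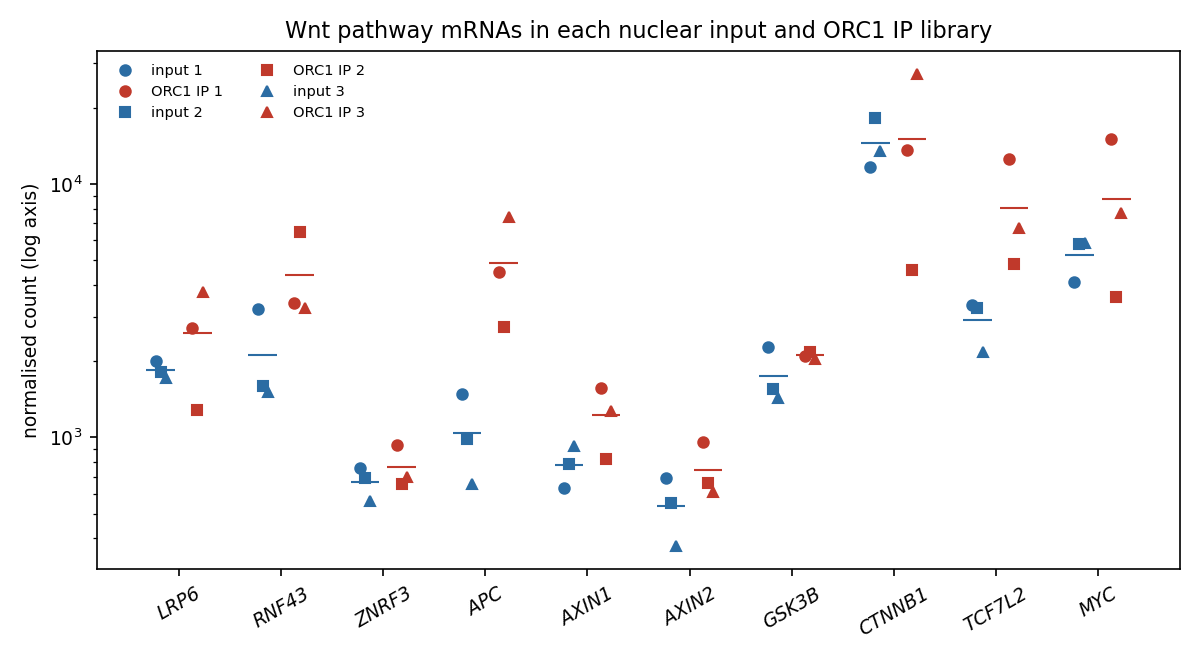
Normalised count of the 10 mRNAs in each of 3 inputs (blue) and 3 ORC1 IPs (red) on a log axis, with lines at the group means and symbol shapes for the replicate number. The ORC1 IPs of APC, TCF7L2 and RNF43 lie above all their inputs. On the deposited scaling, ORC1 IP 2 (red squares) is the lowest ORC1 IP in 7 of 10 mRNAs.

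At the receptor level, none of the 3 mRNAs passed the test. LRP6, the Wnt co-receptor (GRCh38, chromosome 12, 12116025 to 12267044, minus strand), had normalised counts of 2009, 1816 and 1714 in inputs 1 to 3 and of 2708, 1280 and 3747 in ORC1 IPs 1 to 3. The ORC1 IPs lay on both sides of the inputs, with ORC1 IP 2 below all of them. The log2 difference was 0.35 ± 0.44 with a 95% interval of -0.60 to 1.30 (limma, adjusted p = 0.693). Corrected for the GC content and length of transcripts, the LRP6 difference became -0.32. The value rested on single ORC1 IPs, since it was 0.79 without ORC1 IP 2 (limma, adjusted p = 0.111) and 0.015 without ORC1 IP 3.

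RNF43 (chromosome 17, 58353676 to 58417595, minus strand) was at 3220, 1600 and 1512 in the inputs and at 3382, 6469 and 3255 in the ORC1 IPs. The groups did not overlap, but the lowest ORC1 IP exceeded input 1 only narrowly, and the highest value was that of ORC1 IP 2. The log2 differences within pairs 1 to 3 were 0.07, 2.02 and 1.11, and the 95% interval of the limma estimate was 0.06 to 2.07. RNF43 passed the adjusted threshold in none of 19 alternative settings, where its log2 difference ranged from 0.74 to 1.41. In GENCODE v44, 68.4% of the exonic bases of RNF43 are shared with a read-through gene on the same strand that the deposited table does not list, so how such reads were assigned is uncertain.

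ZNRF3 (chromosome 22, 28883572 to 29057488, plus strand) encodes the paralogous ligase with the same role at Frizzled receptors. Its normalised counts were 758, 690 and 560 in the inputs and 931, 653 and 701 in the ORC1 IPs, which overlapped. ZNRF3 differed by 0.18 ± 0.34 on the log2 scale (limma, adjusted p = 0.804), and it was -0.04 with scaling by total count and -0.02 with the GC and length correction. The log2 ratio of RNF43 over ZNRF3 within a library, which is free of library scaling, was 1.58 ± 0.46 in the inputs and 2.46 ± 0.75 in the ORC1 IPs (n = 3 each, two-sided exact permutation test, p = 0.2, 0.4 after adjustment over 6 ratios). The difference between the groups was 0.88, and 0.46 without ORC1 IP 2, and with 3 against 3 the smallest possible p is 0.1, so this test cannot reach 0.05. The ratio of LRP6 over LRP5 differed by 0.27 between the groups (exact permutation test, p = 0.3, n = 3, adjusted 0.45).

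In the destruction complex, 1 of 4 mRNAs passed the test. APC (chromosome 5, 112707518 to 112846239, plus strand), with a longest transcript of 10920 nt and 2 tandem GAA runs side by side in its coding sequence, was at 1490, 983 and 658 in the inputs and at 4494, 2732 and 7420 in the ORC1 IPs. Every ORC1 IP exceeded every input. The means were 1044 ± 419 and 4882 ± 2368 (SD, n = 3), and the 95% interval of the log2 difference was 1.18 to 3.20.

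APC was higher in each numbered pair, by 1.59, 1.47 and 3.49 on the log2 scale, and its estimate lay at percentile 98.3 of all genes tested. The largest within-pair value joined the lowest input with the highest ORC1 IP. The difference was positive in all 19 alternative settings, from 1.48 to 2.55, and passed the adjusted threshold in 13 of them. It no longer passed without input 2 (2.18, limma adjusted p = 0.122), without input 3 (1.89, 0.245) or without ORC1 IP 3 (1.83, 0.0953), whereas without ORC1 IP 2 it was 2.55 (0.00122). Corrected for the GC content and length of transcripts, the APC value was 1.48 (limma, adjusted p = 0.0601, and 0.103 with the replicate number as a block), and without the intensity trend of limma the adjusted p was 0.0612.

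AXIN1 (chromosome 16, 287440 to 352723, minus strand), the scaffold that limits assembly of the complex, was at 629, 788 and 923 in the inputs and at 1572, 821 and 1274 in the ORC1 IPs. Only ORC1 IP 2 fell within the range of the inputs. AXIN1 differed by 0.61 ± 0.37 on the log2 scale (limma, adjusted p = 0.362), and without ORC1 IP 2 it was 0.88 (adjusted p = 0.0798).

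AXIN2 (chromosome 17, 65528563 to 65561648, minus strand), the inducible scaffold, was at 689, 552 and 373 in the inputs and at 958, 663 and 607 in the ORC1 IPs. Input 1 exceeded 2 of the ORC1 IPs, so the groups overlapped, and the log2 difference was 0.48 ± 0.37 (limma, adjusted p = 0.484). Of its exonic bases, 25.3% are shared with a same-strand gene that the deposited table does not list. The ratio of AXIN1 over AXIN2 within a library differed by 0.13 between the groups (exact permutation test, p = 0.9, n = 3, adjusted 0.9), and its sign turned when input 1 (-0.21) or ORC1 IP 3 (-0.05) was left out.

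GSK3B (chromosome 3, 119821321 to 120094994, minus strand), the kinase that phosphorylates beta-catenin within the complex, was at 2275, 1559 and 1426 in the inputs and at 2097, 2174 and 2046 in the ORC1 IPs. The 3 ORC1 IPs lay close together at 2105 ± 64.4 and below input 1. GSK3B differed by 0.29 ± 0.37 on the log2 scale with a 95% interval of -0.50 to 1.09 (limma, adjusted p = 0.692), and it was -0.23 with the GC and length correction. The ratio of GSK3B over GSK3A, its paralogue, differed by 0.80 between the groups (exact permutation test, p = 0.2, n = 3, adjusted 0.4).

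CTNNB1, the mRNA of beta-catenin (chromosome 3, 41194741 to 41260096, plus strand), had the largest standard error of the 10. Its normalised counts were 11682, 18218 and 13489 in the inputs and 13645, 4589 and 27081 in the ORC1 IPs. ORC1 IP 2 lay below all inputs and ORC1 IP 3 above all of them. The log2 difference was -0.25 ± 0.74 (limma, adjusted p = 0.880). Its 95% interval of -1.85 to 1.34 covered differences of either sign, so the direction is not settled. Without ORC1 IP 2 the CTNNB1 difference was 0.44, and count tests on recovered reads gave 0.04 (edgeR) and 0.02 (DESeq2).

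The ratio of APC over CTNNB1 sets the scaffold against its substrate within each library. Its log2 value was -2.97, -4.21 and -4.36 in inputs 1 to 3 and -1.60, -0.75 and -1.87 in ORC1 IPs 1 to 3, so that every ORC1 IP was above every input. The means were -3.85 ± 0.76 and -1.41 ± 0.58, a difference of 2.44 (exact permutation test, two-sided, p = 0.1, n = 3, the smallest p that 3 against 3 can give, and 0.4 after adjustment over 6 ratios).

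TCF7L2 (chromosome 10, 112950247 to 113167678, plus strand) binds target genes together with beta-catenin. Its normalised counts were 3337, 3232 and 2182 in the inputs and 12572, 4851 and 6675 in the ORC1 IPs, with no overlap. The log2 differences within pairs 1 to 3 were 1.91, 0.59 and 1.61, and the 95% interval of the limma estimate was 0.30 to 2.44. TCF7L2 passed the adjusted threshold in 2 of 19 alternative settings, without ORC1 IP 2 (1.68, limma adjusted p = 0.00893) and with DESeq2 on recovered reads (1.44, adjusted p = 0.0197). Leaving out ORC1 IP 2 raised the calls over all genes to 11.9% higher, and DESeq2 called 7.67% higher. The ratio of TCF7L2 over TCF7 within a library differed by 0.74 between the groups (exact permutation test, p = 0.4, n = 3, adjusted 0.48). It was 1.32 without ORC1 IP 2 and 0.38 without ORC1 IP 1.

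MYC (chromosome 8, 127735434 to 127742951, plus strand), the target gene that drives growth in intestinal crypts, was at 4090, 5797 and 5861 in the inputs and at 14998, 3575 and 7707 in the ORC1 IPs. ORC1 IPs 1 and 3 were above all inputs and ORC1 IP 2 was below all of them. The log2 difference was 0.52 ± 0.58 with a 95% interval of -0.73 to 1.78 (limma, adjusted p = 0.650). The MYC value rested on single ORC1 IPs, since it was 1.05 without ORC1 IP 2 (limma, adjusted p = 0.0777) and 0.02 without ORC1 IP 1.

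**Figure D4:**
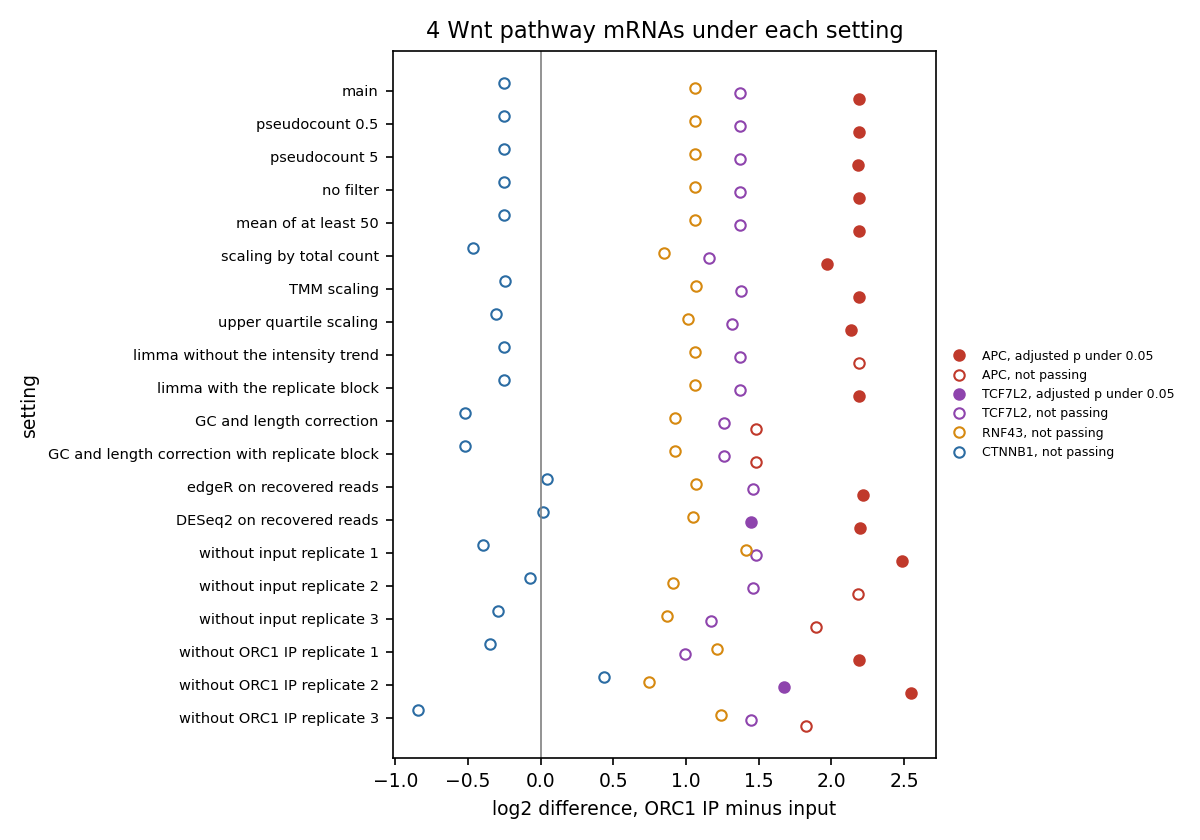
Log2 difference of ORC1 IP minus input for APC, TCF7L2, RNF43 and CTNNB1 in the main limma fit and in 19 alternative settings (rows), with filled points where the adjusted p was under 0.05. APC is positive in every row and filled in the main fit and 13 alternatives, TCF7L2 is filled in 2, and CTNNB1 lies on both sides of 0.

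The ORC1 IPs varied more among themselves than the inputs for 7 of the 10 mRNAs. The SD of log2 values over 3 libraries had a median over the 10 mRNAs of 0.33 in the inputs and 0.63 in the ORC1 IPs, beside 0.38 and 0.60 over all genes tested. On the deposited scaling, ORC1 IP 2 was the lowest ORC1 IP for 7 of the 10 mRNAs, beside 40.3% of all genes tested. It was the highest for 2 of the 10, RNF43 and GSK3B, beside 38.8% of all genes tested. ORC1 IP 1 was the highest for 30.5% of all genes tested and ORC1 IP 3 for 30.7%. The deposited size factor of ORC1 IP 2 was 1.72, against 0.87 for ORC1 IP 1 and 1.34 for ORC1 IP 3. Its normalised total was 14592514, against 30181927 and 26836037, from 25134156 recovered reads, against 26213138 and 36008733. ZNRF3, lowest in ORC1 IP 2 when normalised, had 809, 1124 and 940 recovered reads in ORC1 IPs 1 to 3. APC (3903, 4705 and 9956) and AXIN1 (1365, 1414 and 1710) also had more recovered reads in ORC1 IP 2 than in ORC1 IP 1. Both were lowest in ORC1 IP 2 when normalised. LRP6, CTNNB1, TCF7L2 and MYC had their fewest recovered reads of the ORC1 IPs in ORC1 IP 2. The order of the ORC1 IPs thus depends on the scaling, at least for ZNRF3, APC and AXIN1. Without ORC1 IP 2 the median log2 difference of the 10 was 0.77, against 0.29 without ORC1 IP 1, and 2 of 10 were called higher (APC and TCF7L2), beside 11.9% of all genes, and 0 lower, beside 6.38%. The low values of CTNNB1 and MYC in ORC1 IP 2 went with the lowest summed colon epithelium markers, 17299, and the part of that library's makeup in the results was not tested. Across the 10 mRNAs, which share the same 6 libraries, the log2 difference had a Pearson correlation of 0.25 with transcript length (Spearman -0.04), of -0.18 with GC content (Spearman -0.08) and of -0.31 with input level per kb (Spearman -0.21).

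The other genes of the pathway were described from 6 lists by role, drawn up with earlier results of these data known. The lists held 119 genes, of which 100 were listed in the table and 91 were tested. Of these 91, limma called 1 higher, beside 2.28% of all genes tested, and 0 lower, beside 1.42%. At an unadjusted p under 0.05, limma had 10 higher and 0 lower, beside 12.2% and 9.45% of all genes. DESeq2 called 6 of the 91 higher, beside 7.67% of all genes. The median log2 difference of the 91 was -0.03, beside 0.50 for the 10 core mRNAs.

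The called gene was TCF7L1, a TCF factor known as a repressor, whose normalised counts were 205, 123 and 130 in the inputs and 492, 860 and 338 in the ORC1 IPs. The groups did not overlap, and the highest value was that of ORC1 IP 2. The log2 difference was 1.81 ± 0.42 (limma, adjusted p = 0.0381, n = 3), and 1.45 without ORC1 IP 2 (adjusted p = 0.0189). The count of called pathway genes fell to 0 without input 2, input 3, ORC1 IP 1 or ORC1 IP 3, and also with scaling by total count, without the intensity trend and with the GC and length correction, with or without the replicate block.

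TCF7L1 belongs to the nuclear partners of beta-catenin, the list with the highest median, 0.83 over 17 tested genes, of which 14 were positive, beside 50.7% of all genes, and 6 met the threshold of the study, beside 10.9%. EP300, a histone acetyltransferase that beta-catenin recruits, had the highest value of the list, from 2297 ± 648 in the inputs to 9737 ± 4920 in the ORC1 IPs, with a log2 difference of 1.97 ± 0.53 (limma, adjusted p = 0.0577, and 0.00109 without ORC1 IP 2). The lowest values were those of the corepressor CTBP1 (-0.44) and of CTNNBIP1, an inhibitor of the contact between beta-catenin and TCF factors (-0.42), neither of which passed. In this list 11 of 17 genes fell in the longest length quartile, and the median was 0.61 with the GC and length correction. Pairs 1 to 3 gave list medians of 1.04, 0.07 and 1.22. Without ORC1 IP 2 limma called 10 of the 17 higher, beside 11.9% of all genes. That count was 1 without input 1, and 0 without input 2, input 3, ORC1 IP 1 or ORC1 IP 3.

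Upstream lists had medians near or below 0 and no called gene. The ligands with their secretion factors and R-spondins had a median of -0.39 over 14 tested genes, from -0.77 for WLS, the Wnt carrier, and -0.70 for WNT10B to 0.15 for WNT16 and 0.86 for WNT3 among genes whose mean normalised count was 100 or more. The ligand median was -0.07 without ORC1 IP 1, -0.11 without input 3 and 0.03 over the 8 genes whose mean reached 50. Receptors and co-receptors had a median of -0.46, with 1 of 13 positive, beside 50.7% of all genes, and 7 of the 13 in the longest length quartile. That median was -0.20 without ORC1 IP 1 and -0.30 without ORC1 IP 2. LGR4, a receptor for R-spondins, was at -0.77 and FZD2 at -0.64, whereas FZD5 was at -0.01 and LRP5 at 0.08. The antagonists had a median of -0.19 over 5 genes, with the LRP6 inhibitor DKK1 at -0.69, KREMEN2 at -0.20, KREMEN1 at -0.19 and the Wnt deacylase NOTUM at -0.17. The fifth, FRZB, a secreted Wnt-binding protein named here after its values were seen, had a mean of 11.3 in the inputs and 29.6 in the ORC1 IPs, which did not overlap, and a log2 difference of 1.37 (limma, adjusted p = 0.176). When 1 library was left out, the antagonist median ranged from -0.36 to -0.019.

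The cytoplasmic transducers and partners of the destruction complex had a median of 0.04 over 24 genes, 12 of them in the longest quartile. Its sign was not stable, at 0.25 without ORC1 IP 2, -0.13 without ORC1 IP 3 and -0.20 with the GC and length correction. USP34, a deubiquitinase of the axins, was at 1.81 (limma, adjusted p = 0.129, and 0.00166 without ORC1 IP 2). No gene of this list was called when any other single library was left out. NKD1, a feedback inhibitor, was at 0.86, while FRAT2 was at -0.83 and DVL2 at -0.56. The target genes of the gut had a median of -0.12 over 18 genes and no called gene. That median was 0.042 without input 1. Without ORC1 IP 2 it was 0.11 and 2 of 18 were called higher, beside 11.9% of all genes. These were CD44 (1.56, limma adjusted p = 0.0315) and the crypt transcription factor SOX9 (1.27, 0.0229). No target gene was called when any other single library was left out. In the full set CD44 was at 1.00 and JUN at 0.83, against -0.52 for PLAUR and -0.51 for BIRC5, and the adjusted p-values of these 4 ranged from 0.211 to 0.483 in limma.

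**Figure D5:**
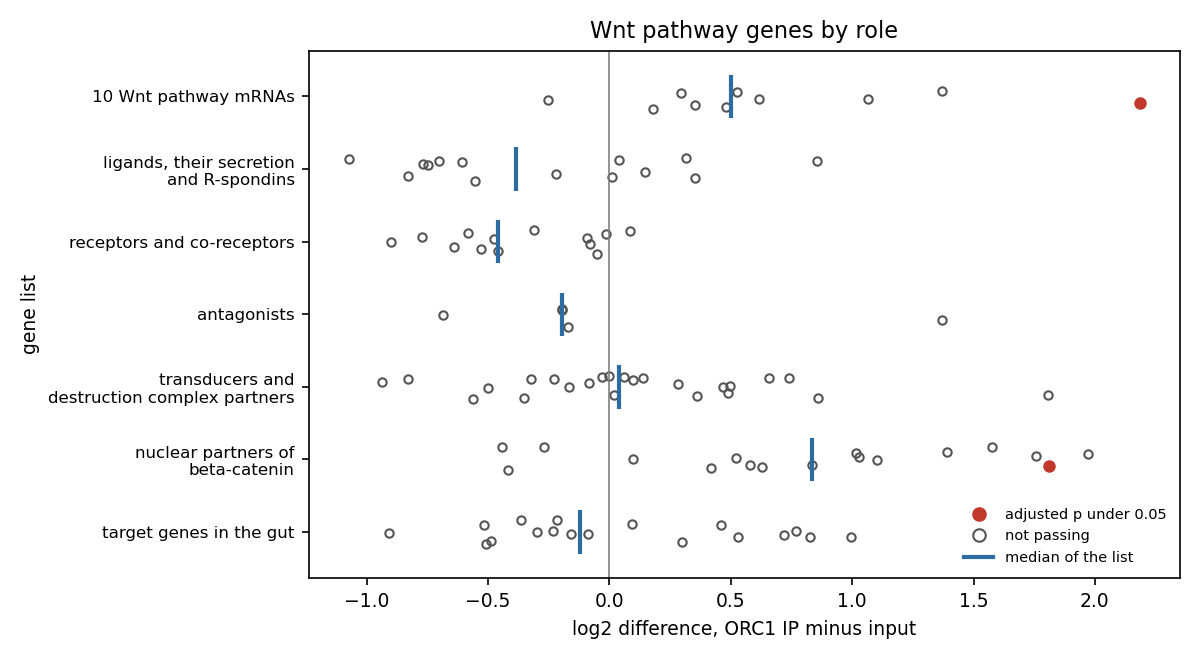
Log2 difference of ORC1 IP minus input for the 10 core mRNAs and for the 6 lists of other Wnt pathway genes, with 1 point per gene, filled where the adjusted p was under 0.05, and a bar at the median of each list. The medians of the 6 lists run from -0.46 for receptors to 0.83 for nuclear partners, and the filled points are APC and TCF7L1.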

How the data were processed

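According to the methods of the study, libraries were made with a stranded total RNA kit, and reads were trimmed with Trimmomatic, aligned with STAR to hg19 and counted per gene with featureCounts. The strand and multimapping settings are not given in the sources used here. The deposited value per gene and library is a normalised signal, in which the authors divided counts by 1 size factor per library. Whole reads were recovered for 100% of values (tolerance 0.001), and they ranged from 13703033 to 36008733 per library. The authors' own comparison columns (mean, fold change, standard error, statistic, p-values) were not used.

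From the deposited signal, log2(normalised count + 1) was fitted with limma 3.58.1 (R 4.3.3, intensity trend, no block) on the 16513 genes whose mean reached 10, with Benjamini-Hochberg adjustment over all of them and a threshold of 0.05. Fold changes on this scale understate changes of low genes. The alternatives were pseudocounts of 0.5 and 5, no filter and a mean of at least 50, other scalings, no trend, a replicate block, a correction for the GC content and length of transcripts (splines with 4 degrees of freedom), edgeR 4.0.16 and DESeq2 1.42.0 on recovered reads, and leaving out each library. edgeR called 425 genes higher and 216 lower. The fits were tested on simulated counts, on which 15.3% of DESeq2 calls were false, against 6.16% for limma and 6.10% for edgeR. The simulation used the same dispersion for every gene and both groups. It did not carry the larger spread of the ORC1 IPs, so these shares may not hold for the data.

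The labels tie an input and an ORC1 IP to the same RIP replicate number. Across genes, libraries with the same number deviated from the means of their groups with correlations of -0.322, -0.240 and 0.215, so values per pair rest on the labels alone. Ratios within a library were set against each other by an exact permutation test, two-sided. GENCODE v44 (GRCh38) gave transcripts, lengths and coordinates, with a match by Ensembl identifier for 97.3% of tested genes. Other pathway genes are named where they were called, or where they were the 2 highest or 2 lowest of their list with a mean of at least 100. The genes and lists were chosen with earlier results of these data known. An adjusted p that DESeq2 did not give was left out.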

Additional observations from a re-analysis of the deposited data

How the results depend on the processing

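Of 190 values of the 10 mRNAs under alternatives, 172 kept their direction and side of the threshold, 6 lost the call, 2 gained one and 10 changed sign. The sign changed with the GC and length correction, with or without the replicate block, for LRP6 (-0.32), GSK3B (-0.23) and ZNRF3 (-0.024), with total count scaling for ZNRF3 (-0.035), and for CTNNB1 with edgeR (0.041), DESeq2 (0.019) and without ORC1 IP 2 (0.44, in a range of -0.84 to 0.44 over the libraries left out). The ratio of AXIN1 over AXIN2 turned to -0.21 without input 1 and to -0.05 without ORC1 IP 3, in a range of -0.21 to 0.51. With the replicate block alone, APC kept its call (2.19, limma adjusted p = 0.0264), the adjusted p of TCF7L2 was 0.223, and 433 genes were called higher and 191 lower. The block changed no call among the 10 mRNAs.

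The mRNAs called higher numbered 0 without the intensity trend and with the correction, with or without the replicate block, 2 with DESeq2, and 0 to 2 when 1 library was left out. The other pathway genes called higher numbered 0 with total count scaling, without the trend and with the correction, with or without the block, 2 with upper quartile scaling, 6 with DESeq2, and 0 to 13 when 1 library was left out. Over all genes, calls higher and lower were 87 and 96 with total count scaling, 143 and 96 without the trend, 131 and 55 with the correction, 70 and 26 with the correction and the block, 1266 and 718 with DESeq2, and 6 to 1965 and 23 to 1053 when 1 library was left out. The share of higher calls was 61.6%, against 47.5% with total count scaling, 70.4% with the correction and 20.7% without input 3.

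At the threshold of the study, 1 to 3 of the mRNAs were higher when 1 library was left out. The other pathway genes, 8 higher and 0 lower, gave 5 higher and 2 lower with the correction, with or without the block, and 4 to 16 higher and 0 to 2 lower when 1 library was left out. Over all genes, 1801 were higher and 1198 lower, against 1096 higher with total count scaling, and 1100 to 2586 higher and 752 to 1628 lower when 1 library was left out. The cause of these changes was not tested. With 3 libraries a group, the differences of AXIN1 and MYC passed the adjusted threshold neither in the main fit nor in any of 19 alternative settings. The smallest difference that could be detected at this spread was not computed.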
